A study of Mus musculus with 32 samples.

Results

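The 10 genes described here encode heat-shock proteins and their partners: Hspa1a, Hspa1b, Hspa5, Hspa8, Hsp90aa1, Hsp90ab1, Hsph1, Hspb1, Dnajb1 and Hspd1. They were chosen by name, as 10 of the 22337 genes in each deposited table, with no measured value in the rule. Earlier results of these data were known when they were chosen. RNA-seq was performed on 32 samples from male C57BL/6J mice aged 6 months, each from 1 individual hippocampus or 1 individual meninges. WT mice, 5xFAD mice left untreated and 5xFAD mice given light each contributed 4 hippocampus (HPC) samples. The meninges came from 4, 3 and 3 such mice, and lymphatic endothelial cells (LECs) sorted from the meninges from 4, 3 and 3 such mice. 5xFAD mice carry human amyloid precursor protein and presenilin transgenes with familial Alzheimer's disease mutations, driven by the neuronal Thy1 promoter, and the WT mice were littermates without the transgenes. Light-treated 5xFAD mice (5xFAD+L in the labels) received near-infrared light through the scalp under anaesthesia for 4 weeks, and the other mice were anaesthetised under indoor lighting. No WT mice that received light were among these samples. HPC and meninges went straight into RNA extraction, whereas LECs were first released by enzymatic digestion of the meninges and sorted as CD45-negative, CD31-positive and PDPN-positive cells. Levels are given as FPKM, fragments scaled by transcript length and library size, which can be compared between genes, and differences as log2 fold changes from edgeR's quasi-likelihood test with their standard errors (SE). A gene passed the test when its p, adjusted over all genes tested in a tissue by the Benjamini-Hochberg method, was below 0.05.

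Chaperones bind unfolded or newly made proteins and help them to fold or to be degraded. When misfolded protein accumulates in the cytosol, heat-shock factor HSF1 binds heat-shock elements in the promoters of the inducible members, while misfolded protein in the endoplasmic reticulum (ER) induces ER chaperones through a separate pathway, the unfolded protein response. In the brain, HSP70 and small heat-shock proteins are known for binding aggregation-prone proteins, and astrocytes and vascular cells are known to express small heat-shock proteins. Hspa1a and Hspa1b encode the same inducible cytosolic HSP70, Hspa8 the constitutive cytosolic HSP70 and Hspa5 the ER HSP70, BiP. Dnajb1 is an HSP40 that stimulates the ATPase activity of HSP70, and Hsph1 (HSP110) is its nucleotide exchange factor. Hsp90aa1 and Hsp90ab1 encode the stress-inducible and the constitutive cytosolic HSP90. Hspb1 (HSP27) is a small heat-shock protein that holds unfolded proteins, and Hspd1 (HSP60) is the mitochondrial chaperonin.

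The promoter sequences were searched for heat-shock and ER stress elements, and the stretch that holds a match is given for each gene with one. A match in spelling does not show that the element is used. RefSeq promoter windows of GRCm38.p6, from 250 bases before to 50 bases after a start site, matched 7 of the 10 genes by symbol. A heat-shock element was searched on both strands as GAANNTTC or TTCNNGAA, which 15.1% of the 32851 windows in the RefSeq table contain, and an ER stress element as CCAAT and CCACG separated by 9 bases, which 0.119% contain. Matched bases are in capitals and all sequences run 5′ to 3′ on the gene's strand.
Hspa1a: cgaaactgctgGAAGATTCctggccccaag
Hspa1b: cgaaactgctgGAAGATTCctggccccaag
Hspb1: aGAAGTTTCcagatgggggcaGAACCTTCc
Hspd1: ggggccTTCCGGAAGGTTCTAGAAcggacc
Hsph1: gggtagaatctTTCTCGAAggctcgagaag
Hspa5: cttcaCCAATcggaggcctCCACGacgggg

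These stretches lie at chr17:34972242-34972271 (minus strand) for Hspa1a, chr17:34959324-34959353 (minus strand) for Hspa1b, chr5:135887801-135887830 (plus strand) for Hspb1, chr1:55088053-55088082 (minus strand) for Hspd1, chr5:149636351-149636380 (minus strand) for Hsph1 and chr2:34772020-34772049 (plus strand) for Hspa5. The Hspd1 stretch comes from 1 of its windows, and its other window holds no match. By the GENCODE annotation of GRCm38, the Hspd1 and Hspa5 stretches lie inside the annotated genes, as does the match of Hsph1. The Hspd1 stretch holds 3 overlapping matches, which make up a longer run (GAANNTTCNNGAA or TTCNNGAANNTTC) found in 0.603% of windows. Hsph1 has such a run after its start site, outside the stretch shown. In Hspa5 the match is the ER stress element, and no heat-shock element of this spelling was found in its window or in the windows of Dnajb1. Windows for Hspa8, Hsp90aa1 and Hsp90ab1 were not used here. Over the whole window Hspa1a and Hspa1b share 296 of 300 bases, or 98.7%. Their transcripts are also alike: both are genes of a single exon on the minus strand of chromosome 17 in the GENCODE annotation of GRCm38 (Hspa1a at chr17:34969190-34972156, Hspa1b at chr17:34956436-34959238), and 52.7% of the 75-base windows of the Hspa1a transcript occur unchanged in the Hspa1b transcript. The division of reads between them is therefore an estimate of the authors' counting, and Hspa1a and Hspa1b were also tested as a sum. In addition, 19.0% of the Hspa1a exon lies under a gene model on the opposite strand, Gm20481, and 4.24% of the exon bases of Hspd1 under its partner Hspe1, and reads of such pairs cannot be told apart without strand.

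In the HPC of WT mice the constitutive cytosolic HSP70 and both HSP90 genes were the highest of the members, and the HSP70 pair Hspa1a and Hspa1b the lowest. The median FPKM was 1284 for Hspa8, 1177 for Hsp90ab1 and 979 for Hsp90aa1, which ranked between 34 and 48 of 22337 genes by their median over the 12 HPC samples. It was 119 for Hspa5, 84.3 for Hspd1, 82.3 for Hsph1, 25.3 for Dnajb1, 12.3 for Hspb1, 10.4 for Hspa1a and 0.67 for Hspa1b. Neighbouring levels overlapped over the 4 WT mice for Hsp90ab1 and Hsp90aa1, for Hspd1 and Hsph1, and for Hspb1 and Hspa1a. Hspa1b did not reach an FPKM of 1 in 3 samples of HPC or of meninges, so 9 of the 10 members were tested in these tissues, and all 10 in LECs. The 10 members together took between 0.659% and 0.842% of all counts in an HPC sample and between 0.501% and 0.805% in a meninges sample.

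**Figure D1:**
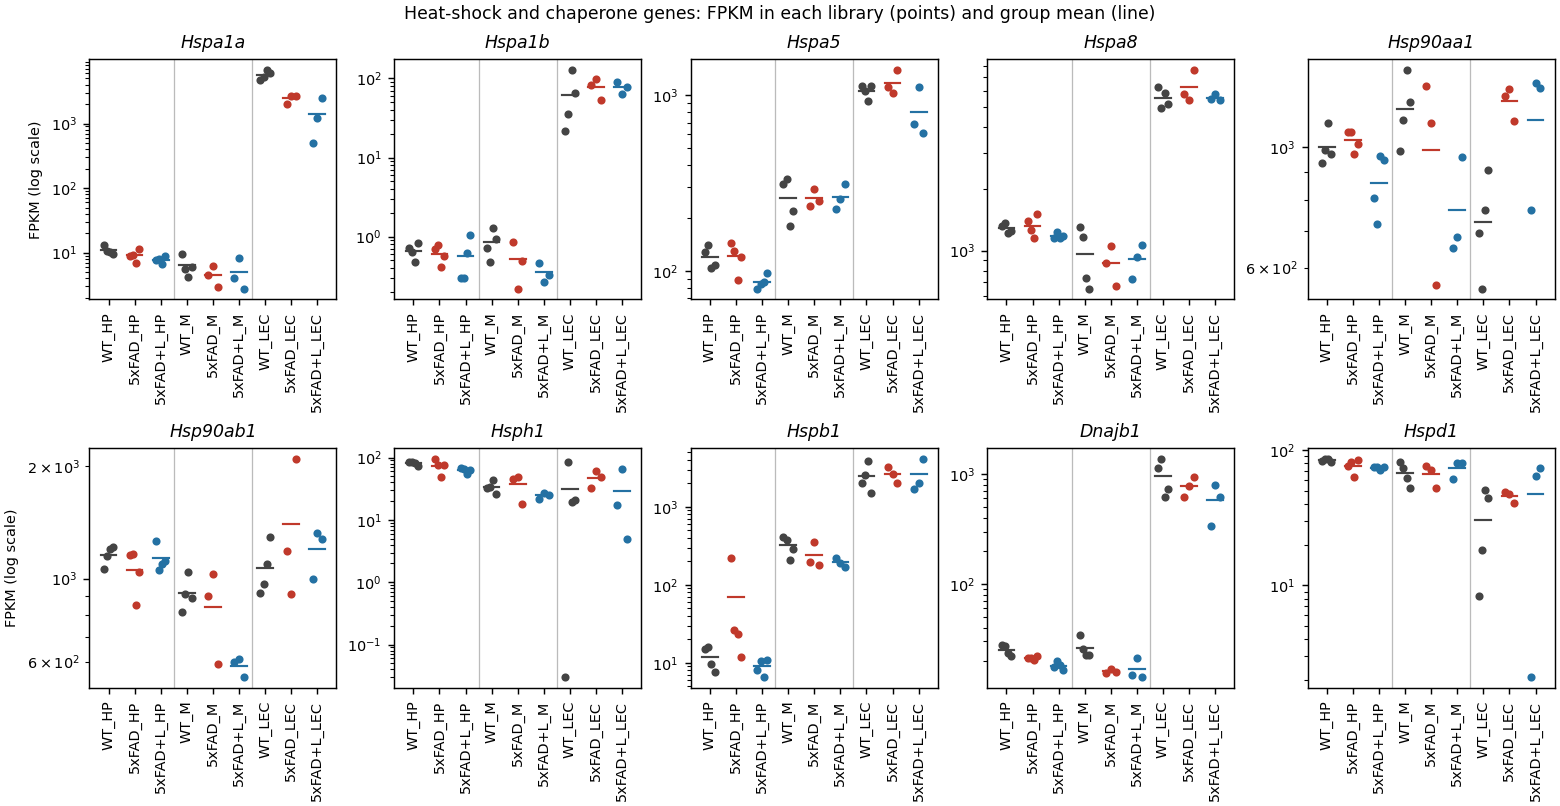
FPKM of each of the 10 genes on log axes (each panel has its own range) in the 9 groups, with a point for each library and a line at the group mean; HP is hippocampus, M meninges and LEC sorted lymphatic endothelial cells, and +L marks light treatment. Hspa1a, Hspa1b, Hspa5, Hspa8, Hspb1 and Dnajb1 sit highest in LECs, Hspb1 stands at 220 in a single untreated 5xFAD hippocampus, and Hspd1 and Hsph1 are lowest in single LEC libraries.

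Depth was 13952825 to 23856476 counts a sample in HPC, 6601143 to 14708202 in meninges and 14231415 to 24207326 in LECs, and edgeR's common coefficient of biological variation was 0.198, 0.350 and 1.89, so that the LEC test was the least sensitive. Thy1, whose promoter drives the transgenes, read 407 to 622 FPKM in the 8 HPC samples of 5xFAD mice with or without light and 170 to 189 in the 4 of WT mice. Neuronal markers summed to between 1399 and 1927 FPKM in HPC and choroid plexus markers to between 15710 and 49556 FPKM in meninges. Choroid plexus markers also reached 3216, 2940 and 2819 FPKM in 3 HPC samples, against 36.5 to 698 in the other 9. Fewer cells of a type and less RNA per cell cannot be told apart in these bulk samples.

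The first question was how 5xFAD mice differed from WT mice in the HPC. A single member passed the test: Hspb1, which encodes the small heat-shock protein HSP27, was 2.60 ± 0.74 (SE) higher on the log2 scale in 5xFAD mice, with an adjusted p of 0.0450 by edgeR's quasi-likelihood test. That is 1 of 9 members tested, where 8.54% of the 12981 genes tested passed. The FPKM of Hspb1 was 220, 26.1, 23.4 and 11.7 in the 4 untreated 5xFAD mice and 14.98, 15.7, 9.68 and 7.63 in the 4 WT mice. A single 5xFAD sample stood far above the rest, and the lowest 5xFAD sample lay within the WT range. Without that sample, 5xFAD replicate 1, the difference was 0.77 ± 0.30 (SE) with an adjusted p of 0.156, and the call was also lost without any of the 4 WT samples (adjusted p 0.0861 to 0.135). The same sample had the highest summed astrocyte markers (3975 FPKM, against 1948 to 2910 in the other 5xFAD and 1441 to 1701 in the WT samples), microglia and macrophage markers (909, against 521 to 671 and 210 to 241) and choroid plexus markers (3216), all 5, 6 and 5 of which were in the table, whereas its pericyte and smooth muscle markers (27.8, against 22.9 to 31.2) and meningeal fibroblast markers (45.2, against 94.8 to 122) were within or below the range of the other 5xFAD samples. In WT samples these last markers summed to 17.1 to 22.8 and 32.7 to 67.2, so that pericyte and smooth muscle markers were higher in every 5xFAD than in every WT sample. The part of these cells in the Hspb1 value was not tested.

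The other members were close to WT levels in the HPC of untreated 5xFAD mice. None of the 9 tested members had groups that did not overlap, where 14.5% of all genes tested did. Dnajb1 had the next smallest p, with 21.2, 21.1, 20.5 and 22.3 FPKM in 5xFAD mice and 27.9, 27.0, 23.6 and 22.3 in WT mice. The highest 5xFAD sample equalled the lowest WT sample, and the difference of -0.23 ± 0.086 (SE) had an adjusted p of 0.119. Hspa1a read 8.94, 9.16, 6.87 and 11.3 FPKM in 5xFAD mice and 13.3, 10.5, 10.3 and 9.58 in WT mice, with a difference of -0.26 ± 0.15 (SE) and an adjusted p of 0.308. The log2 differences of Hspa5, Hspa8, Hsp90aa1, Hsp90ab1, Hsph1 and Hspd1 lay between -0.13 and 0.07.

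The next comparison asked what light did in the HPC of 5xFAD mice. No member passed edgeR's test between light-treated and untreated 5xFAD mice, where 0.455% of genes did, and 4 of 9 members had an unadjusted p below 0.05, where 18.3% of genes did. All 4 were lower in light-treated mice: Hspb1, Hspa5, Hsp90aa1 and Dnajb1. Hspa5, the ER chaperone BiP, read 79.7, 84.7, 86.6 and 97.99 FPKM in light-treated mice and 144, 131, 89.4 and 121 in untreated mice. The groups overlapped through untreated replicate 3, and the difference was -0.48 ± 0.15 (SE, adjusted p 0.131). Hsp90aa1, the inducible HSP90, read 804, 722, 964 and 948 FPKM with light and 1065, 1067, 972 and 1013 without. Every light-treated sample was below every untreated sample, with a difference of -0.30 ± 0.11 (SE, adjusted p 0.165), while its constitutive counterpart Hsp90ab1 differed by 0.08 ± 0.11 (SE, adjusted p 0.733). The ratio of Hsp90aa1 to Hsp90ab1 was 0.636, 0.684, 0.884 and 0.848 in light-treated mice and 0.920, 0.918, 1.14 and 0.976 in untreated mice, which did not overlap, and 0.798 to 0.921 in WT mice, which overlapped with both. The ratio was not tested, and no share over other gene pairs was computed to set beside it.

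Dnajb1 and Hspb1 were likewise lower in every light-treated than in every untreated sample, so that 3 of 9 members did not overlap, where 7.63% of genes did. Dnajb1 read 17.4, 20.0, 18.2 and 16.5 FPKM in light-treated mice, with a difference from untreated mice of -0.24 ± 0.087 (SE, adjusted p 0.168). Hspb1 read 8.06, 10.5, 6.54 and 10.9 FPKM in light-treated mice, and the difference of -3.01 ± 0.76 (SE, adjusted p 0.0853) was -1.18 ± 0.30 (SE, adjusted p 0.107) without untreated replicate 1. DESeq2 called 2 members in this comparison, Hspb1 with an adjusted p of 0.00944 and Hspa5 with 0.0433. Over all 12981 genes tested, DESeq2 called 356 higher and 285 lower. Hspb1 also passed without untreated replicate 2 (0.0465), and over all fits tried the adjusted p ranged from 0.00944 to 0.274 for Hspb1 and from 0.0433 to 0.346 for Hspa5.

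Compared with WT mice, 1 member passed in light-treated 5xFAD mice, the HSP70 co-chaperone Dnajb1. The fitted log2 differences of the 9 tested members lay between -0.48 and -0.03, where 50.4% of all genes tested were below 0, and the smallest, that of Hsp90ab1 (-0.03 ± 0.11, SE), was 0.017 without light-treated replicate 2. Dnajb1 fell by 0.47 ± 0.087 (SE) on the log2 scale, with an adjusted p of 0.00570 and each of the 4 light-treated samples below each of the 4 WT samples. It is 1 of 9 members, where 3.59% of genes passed, and it passed in all 18 fits tried, with adjusted p from 1.04e-05 to 0.0286. Hspa1a, Hspa5, Hsph1 and Hspd1 also had groups that did not overlap, so that 5 of 9 members were lower without overlap, where 14.9% of genes did not overlap in either direction. Hspa1a, the inducible HSP70, read 7.72, 7.85, 6.79 and 8.81 FPKM in light-treated mice and differed from WT by -0.48 ± 0.15 (SE, adjusted p 0.103). Hspa5 differed by -0.48 ± 0.15 (SE, adjusted p 0.104) and Hsph1, at 68.2, 66.6, 55.5 and 63.5 FPKM against 85.2, 84.0, 80.5 and 72.9, by -0.32 ± 0.16 (SE, adjusted p 0.359). When only these 2 groups were fitted, 4 members passed, namely Dnajb1, Hspa5, Hspa1a and Hsph1, and DESeq2 called Dnajb1, Hspa5 and Hspa1a. Over all 12981 genes tested, DESeq2 called 628 higher and 245 lower. The share over all genes in the fit of only 2 groups is not given here. This comparison shares its light-treated samples with the one before and its WT samples with the first, and it holds both the transgenes and the light. Neuronal markers, all 6 in the table, summed to 1520 to 1635 FPKM in light-treated and 1766 to 1927 in WT mice. Astrocyte markers summed to 2006 to 2595 against 1441 to 1701, and microglia and macrophage markers to 411 to 678 against 210 to 240.5, also without overlap. The part of these cells in the values above was not tested.

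**Figure D2:**
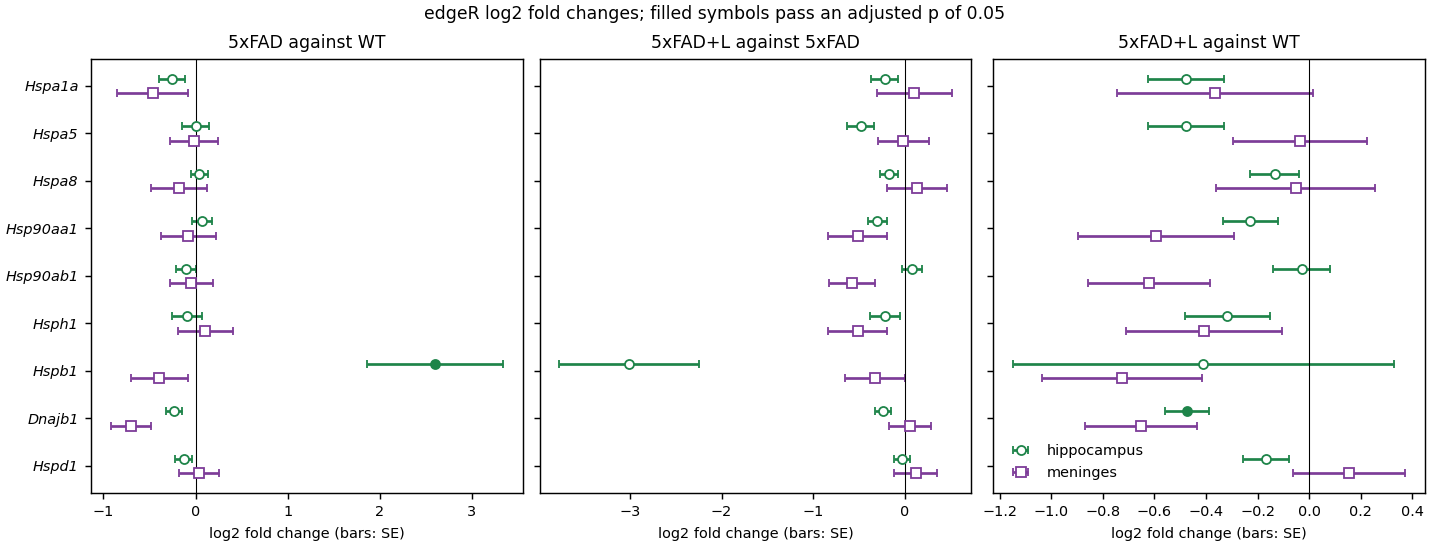
Log2 fold changes of the 9 members tested in hippocampus (circles) and meninges (squares) for the 3 comparisons, with bars of 1 SE and filled symbols where the adjusted p was below 0.05; the horizontal axis differs between panels. Only Hspb1 in 5xFAD against WT and Dnajb1 in 5xFAD+L against WT are filled, both in hippocampus, and the difference of Hspb1 was 0.77 without 1 library.

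In the meninges no member passed in any of the 3 comparisons, and few genes did: 0% of the 14318 genes tested between 5xFAD and WT mice, 0.0140% between light-treated and untreated 5xFAD mice, and 0.0140% between light-treated 5xFAD and WT mice. DESeq2 called no member either. Dnajb1 was the member that stood furthest from WT in 5xFAD mice, with 15.5, 16.9 and 15.8 FPKM against 34.6, 25.5, 22.4 and 22.6. Every 5xFAD sample was below every WT sample, and the difference was -0.70 ± 0.22 (SE) with an unadjusted p of 0.00632 and an adjusted p of 0.987 by edgeR. It was the 1 member of 9 with an unadjusted p below 0.05, where 4.01% of genes had one, and the 1 member whose groups did not overlap, where 4.85% of genes did not. Hspb1 read 196, 359 and 177 FPKM in untreated 5xFAD and 415, 372, 210 and 286 in WT meninges, with a difference of -0.39 ± 0.31 (SE, adjusted p 0.987). The remaining 7 members differed by between -0.47 and 0.11 on the log2 scale.

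Between light-treated and untreated 5xFAD meninges, Hsp90ab1 was the 1 member of 9 with an unadjusted p below 0.05 (0.0374, adjusted p 0.371 by edgeR), where 12.7% of genes had one. Its FPKM was 600, 611 and 545 in light-treated and 898, 1032 and 590 in untreated mice, which overlapped through untreated replicate 4, and its log2 difference was -0.58 ± 0.25 (SE). No member was without overlap here, where 20.8% of genes were. Hsp90aa1 at 652, 683 and 959 FPKM with light and 1297, 1109 and 558 without, and Hsph1 at 21.6, 27.4 and 25.6 against 45.3, 48.3 and 17.9, showed the same split, with untreated replicate 4 the lowest of its group for all 3 genes. Against WT meninges, 3 members had an unadjusted p below 0.05 in light-treated mice, where 16.4% of genes had one: Dnajb1 (-0.65 ± 0.22, SE), Hsp90ab1 (-0.62 ± 0.24, SE) and Hspb1 (-0.73 ± 0.31, SE), with adjusted p of 0.181, 0.225 and 0.275. Dnajb1, Hsp90ab1 and Hsp90aa1 did not overlap with WT, where 12.3% of genes did not.

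The joint fit of HPC and meninges asked whether the tissues differ at baseline and whether the differences between groups differ between tissues. The sources used here do not say whether HPC and meninges came from the same mice, and the fit treats them as independent. In WT mice 7 of 9 members passed between the tissues, where 73.0% of the 15132 genes tested passed. Hspb1 was higher in meninges by 4.67 ± 0.68 (SE) on the log2 scale, with 210 to 415 FPKM against 7.63 to 15.7, and Hspa5 by 1.04 ± 0.19 (SE), with 181 to 333 against 104 to 141. Hsph1 was lower in meninges by 1.35 on the log2 scale (-1.35 ± 0.23, SE), with 25.6 to 43.7 FPKM against 72.9 to 85.2. Hspa1a, Hspa8, Hsp90ab1 and Hspd1 passed with smaller differences of -0.85, -0.53, -0.39 and -0.31, of which Hspa8 was lost without WT meninges replicate 4 (adjusted p 0.0990), Hsp90ab1 without WT meninges replicate 1 (0.0538) and Hspd1 without WT HPC replicate 3 (0.0964) or WT meninges replicate 4 (0.181). Dnajb1 at 22.4 to 34.6 FPKM in meninges and 22.3 to 27.9 in HPC did not pass (adjusted p 0.942), nor did Hsp90aa1 (0.553).

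No member passed the test of a different change in the tissues. Between 5xFAD and WT mice, where 1.74% of genes passed, the change of Hspb1 was lower in meninges than in HPC by 3.00 on the log2 scale (-3.00 ± 0.90, SE, adjusted p 0.0993), and it and Dnajb1 were the 2 members of 9 with an unadjusted p below 0.05, where 12.8% of genes had one. Without 5xFAD HPC replicate 1 the Hspb1 value was -1.18, and without 5xFAD HPC replicate 4 it passed (-3.30, adjusted p 0.0366). Between light-treated and untreated 5xFAD mice, where 1.05% of genes passed, Hsp90ab1 differed by -0.67 ± 0.22 (SE, adjusted p 0.116) and Hspb1 by 2.65 ± 0.92 (SE, adjusted p 0.130), again 2 members of 9 with an unadjusted p below 0.05, where 19.8% of genes had one. Hsp90ab1 passed without 5xFAD meninges replicate 4 (-0.84, adjusted p 0.0415). By DESeq2, Hspb1 passed in the first of these tests and Hsp90ab1 in the second.

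The LEC libraries were set apart from the tissues by very high levels of some members, Hspa1a above all. The LECs were deposited apart from the tissues and were not tested against them, so these levels are a description. The LEC libraries held 5998 to 9020 genes with counts above 0, against 16371 to 19769 in HPC and meninges. In WT LECs, Hspa1a read 4690, 5205, 6735 and 6119 FPKM, against 4.22 to 9.66 in WT meninges and 9.58 to 13.3 in WT HPC, and the ratio of the WT medians was 991 to meninges. Dnajb1 read 1133, 1383, 618 and 725 FPKM in WT LECs, 38.7 times the median of WT meninges. Hspa1b stood at 21.8 to 128 FPKM, 60.6 times the meningeal median, and Hspb1 at 1518 to 3920, 6.96 times. The ratio was 5.82 for the constitutive Hspa8, 4.10 for Hspa5 and 1.15 for the constitutive Hsp90ab1. It was below 1 for the inducible Hsp90aa1 (0.626), for Hsph1 (0.603) and for Hspd1 (0.461), so the high levels were not shared by all inducible members. Over the 10 LEC libraries Hspa8 ranked 5, Hspa1a 19 and Hspb1 23 of 22337 genes by median FPKM, and the 10 members took between 2.23% and 4.50% of all counts. The 13 immediate early genes listed beside them, which are known to respond within minutes to handling and digestion of cells, summed to 4806 to 17047 FPKM in LECs, 253 to 923 in meninges and 185 to 437 in HPC. Digestion and sorting separate LECs from both tissues in every sample, so that cell type and handling cannot be told apart.

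The sorted cells were checked against lymphatic endothelial markers, all 8 of which were in the table. Pecam1, which encodes the CD31 used in the sort, was present in all 10 LEC libraries (189 to 398 FPKM), whereas Pdpn was listed at 0 in 4, Prox1 in 3, Lyve1 in 2 and Reln in 6 of them. WT replicates 2 and 4 had summed lymphatic markers of 227 and 302 FPKM, with Ccl21a at 3.54 and 0, while the other 8 libraries summed to 1447 to 9930. Blood endothelial markers (6 genes) summed to 1045 to 3859 FPKM in WT LECs. They summed to 1765 to 3218 in untreated and 1534 to 2233 in light-treated 5xFAD LECs, and to 148 to 241 in WT meninges. The part of blood endothelial cells in the LEC libraries was not tested. Oligodendrocyte and choroid plexus markers reached 260 and 563 FPKM in WT replicate 2 and erythroid markers 6222 FPKM in 5xFAD replicate 4. Comparisons with WT LECs were therefore also fitted without WT replicates 2 and 4, a choice made after the data were seen. No member passed in those fits, and Hspa1b turned from 0.21 to -0.04 in untreated and from 0.22 to -0.03 in light-treated 5xFAD mice, and Hsph1 from 0.60 to 2.16 and from -0.02 to 1.53, with SE of up to 1.90 on the log2 scale.

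Hspa1a differed most among the members between the LEC groups, in a test that called next to nothing. It read 1982, 2713 and 2689 FPKM in untreated 5xFAD mice and 499, 1203 and 2508 in light-treated 5xFAD mice. Every sample of either 5xFAD group was below all 4 WT samples, and the 2 groups of 5xFAD mice overlapped. The log2 difference was -1.36 ± 0.40 (SE) between untreated 5xFAD and WT mice, -2.14 ± 0.41 (SE) between light-treated 5xFAD and WT mice, and -0.78 ± 0.41 (SE) between the 2 groups of 5xFAD mice. By edgeR the adjusted p was 1.00, 0.221 and 1.00, with unadjusted p of 0.00425, 0.000146 and 0.0793, and 0%, 0.0122% and 0% of the 8188 genes tested passed. Light-treated against WT mice passed by DESeq2 (adjusted p 0.000121), by limma on log2(FPKM + 1) (0.0397) and with no filter on low values (1.12e-26), as untreated 5xFAD against WT mice also did in the last of these (8.00e-11), and it did not pass by DESeq2 with no filter (0.367) or without WT replicates 2 and 4 (-2.17, adjusted p 0.571). Untreated 5xFAD against WT mice gave -1.40 without those libraries (adjusted p 0.999). Without any single library the difference from WT stayed between -2.75 and -1.72 in light-treated and between -1.39 and -1.21 in untreated 5xFAD mice. The difference between the groups of 5xFAD mice was -0.36 without light-treated replicate 1 and -1.40 without light-treated replicate 3. Summed with Hspa1b, the difference from WT was -1.33 in untreated and -2.08 in light-treated mice.

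**Figure D3:**
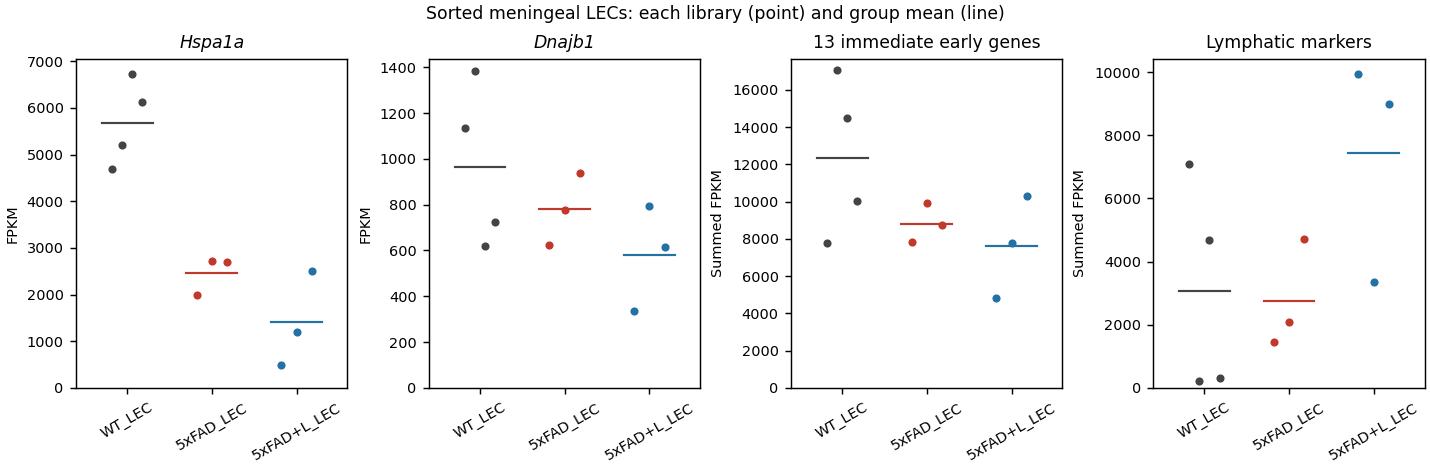
FPKM of Hspa1a and Dnajb1, and summed FPKM of 13 immediate early genes and of 8 lymphatic markers, in each sorted LEC library (points) with group means (lines), on axes that start at 0. Hspa1a is at or above 4690 in the 4 WT libraries and at or below 2713 in the other 6, whereas Dnajb1 and the immediate early genes overlap between groups and the lymphatic markers are lowest in 2 WT libraries.

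Hspa1a was 1 of 10 members with an unadjusted p below 0.05 between untreated 5xFAD and WT LECs, where 3.81% of genes had one, and again 1 of 10 between light-treated 5xFAD and WT LECs, where 6.72% did. No member had one between light-treated and untreated 5xFAD LECs, where 4.01% did. Between untreated 5xFAD and WT mice 2 members did not overlap, Hspa1a below and Hsp90aa1 above, where 6.23% of genes did not. Hsp90aa1 read 1242, 1278 and 1117 FPKM in untreated 5xFAD and 694, 549, 766 and 908 in WT LECs, with a fitted log2 difference of 0.38 ± 0.37 (SE, adjusted p 1.00). Between light-treated 5xFAD and WT mice Hspa1a was the 1 member without overlap, where 5.67% of genes did not, and between the groups of 5xFAD mice there was none, where 10.1% did not.

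Other inducible members did not separate the LEC groups in the way that Hspa1a did. The HSP70 co-chaperone Bag3, which is not a member and is given below, did. Dnajb1 read 623, 776 and 939 FPKM in untreated and 335, 796 and 616 in light-treated 5xFAD LECs, and overlapped with WT in both. Hspa1b read 82.6, 99.8 and 53.2 in untreated and 90.9, 64.4 and 77.6 in light-treated 5xFAD LECs, within the WT range of 21.8 to 128, so that it made up 0.438% to 1.76% of the counts of the pair in WT and 1.84% to 14.7% in 5xFAD libraries. Hspa8 read 4980 to 7605 FPKM over the 10 libraries and its log2 differences lay between -0.15 and -0.01. Hsph1 ranged from 0.03 to 83.7 FPKM and Hspd1 from 2.10 to 74.2, and with SE of 1.21 to 1.56 on the log2 scale a difference of several fold was not detectable for these genes. The immediate early genes summed to 7782, 17047, 14481 and 10060 FPKM in WT, 7832, 9913 and 8738 in untreated and 4806, 7776 and 10293 in light-treated 5xFAD LECs, in the same order of group means as Hspa1a but with overlap. Their part in the Hspa1a values was not tested.

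The 10 members were set beside 91 other genes of the chaperone network and of stress responses, in 9 lists. Of these genes 7 rose and 1 fell in the HPC of 5xFAD against WT mice among 89 tested, which is 8.99%, close to the 8.54% of all genes. An unadjusted p below 0.05 was found for 21, or 23.6%, where 24.0% of all genes had one, and the median log2 difference was 0.023 beside 0.015 over all genes. Of the small heat-shock proteins Hspb6, Hspb3 and Hspb8 rose, 3 of 5 tested, with log2 differences of 1.91 ± 0.41, 2.24 ± 0.51 and 0.81 ± 0.23 (SE) and adjusted p of 0.0106, 0.0153 and 0.0479, and the median of the list was 0.81. Hspb6 read 33.7, 6.75, 11.96 and 9.43 FPKM in 5xFAD and 3.87, 3.95, 4.70 and 4.27 in WT mice, with no overlap, and its call held without any single library (adjusted p 0.00248 to 0.0386), with the smallest difference, 1.15, without 5xFAD replicate 1. Hspb3 was low throughout, at 2.92, 1.64, 6.51 and 1.26 FPKM against 0.51 to 0.84. No WT sample reached the FPKM of 1 that the filter asks of 3 samples, so Hspb3 entered the test through the 5xFAD groups and its count is no support for the list. The 3 of 5, the list median and the 8.99% all include Hspb3. It lost its call without WT replicate 3 or 4. Hspb8 read 37.3, 28.2, 16.4 and 32.5 FPKM against 12.2 to 21.4, overlapped with WT through 5xFAD replicate 3, and lost its call without WT replicate 1, 3 or 4 or 5xFAD replicate 1, 2 or 4 (adjusted p up to 0.146). The 5xFAD sample with the highest Hspb1 was also the highest for Hspb6 and Hspb8. The astrocyte, microglia and pericyte and smooth muscle markers given above separate the same groups, and their part in these values was not tested.

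Among 22 ER chaperones and genes of the unfolded protein response, Sdf2l1, which partners BiP in the ER, rose in 5xFAD HPC by 0.76 ± 0.20 (SE, adjusted p 0.0290), from 15.6 to 23.2 FPKM in WT mice to 41.2, 32.7, 19.3 and 30.5. Its call was lost without WT replicate 1, 3 or 4 or 5xFAD replicate 1 or 2. Of 18 HSP70 co-chaperones and relatives, Hspa12a, an HSP70-like protein, fell by 0.81 on the log2 scale (adjusted p 0.0464), from 39.6 to 47.8 FPKM to 17.9, 23.6, 16.8 and 42.2, and lost its call without any single library but 5xFAD replicate 4. No gene of the HSP90 co-chaperones (10 tested), the mitochondrial chaperones and proteases (8), the cytosolic TRiC chaperonin (8), the heat-shock factors (3) or the cold-inducible RNA-binding proteins (2) passed, and Hsf1, the main heat-shock factor, differed by 0.07 ± 0.12 (SE). Of the 13 immediate early genes, Atf3, Zfp36 and Fos rose by 2.34, 1.19 and 1.07 (adjusted p 0.00221, 0.0241 and 0.0377), with a list median of 0.77. Atf3 reached an FPKM of 1 in 1 of 4 WT samples and so also entered through the 5xFAD groups. The list count and median and the 8.99% of all list genes include Atf3, and its count is no support for the list. Atf3 kept its call without any single library, Zfp36 lost it without WT replicate 2, 3 or 4, and Fos without any WT replicate or 5xFAD replicate 1 or 3.

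No gene of the 9 lists passed edgeR's test between light-treated and untreated 5xFAD HPC, and 29 of 89, or 32.6%, had an unadjusted p below 0.05, where 18.3% of all genes did. The list medians below all genes (-0.02) were those of the immediate early genes (-0.86, with 12 of 13 below 0), the small heat-shock proteins (-0.76, 5 of 5 below 0), the ER chaperones (-0.21, 20 of 22 below 0), the heat-shock factors (-0.12), the HSP90 co-chaperones (-0.08) and the HSP70 co-chaperones (-0.05). Medians above it were those of TRiC (0.043, 7 of 8 above 0), the mitochondrial chaperones and proteases (0.035, 5 of 8) and the cold-inducible genes (0.359, 2 of 2). Unadjusted p below 0.05 was found for 10 of 22 ER chaperone genes and 4 of 5 small heat-shock proteins, beside the same 18.3%. Marker sums moved between the same groups: meningeal fibroblast markers were 16.8 to 29.7 FPKM with light and 45.2 to 122 without, pericyte and smooth muscle markers 16.8 to 20.5 against 22.9 to 31.2, both without overlap, and choroid plexus markers 63.6 to 245 against 208 to 3216. In WT mice the small heat-shock proteins had a median log2 difference of 2.83 between meninges and HPC and the ER chaperones 0.89, and the part of such cells in the values with light was not tested. Within the ER list, the stress sensor Atf6 was higher with light by 0.50 ± 0.13 (SE, adjusted p 0.0849), and Sdf2l1 was lower by 0.56 on the log2 scale (-0.56 ± 0.20, SE, adjusted p 0.165). Bag3, an HSP70 co-chaperone that works with Hspb8, read 4.34, 5.17, 4.31 and 4.84 FPKM with light and 13.7, 6.18, 4.62 and 7.54 without (adjusted p 0.150). The cold-inducible Rbm3 read 141, 131, 160 and 126 FPKM with light and 89.2, 75.5, 139 and 87.0 without (0.51 ± 0.18, SE, adjusted p 0.162). These samples are the ones whose untreated group was compared with WT, so the medians in both directions share the untreated 5xFAD samples.

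**Figure D4:**
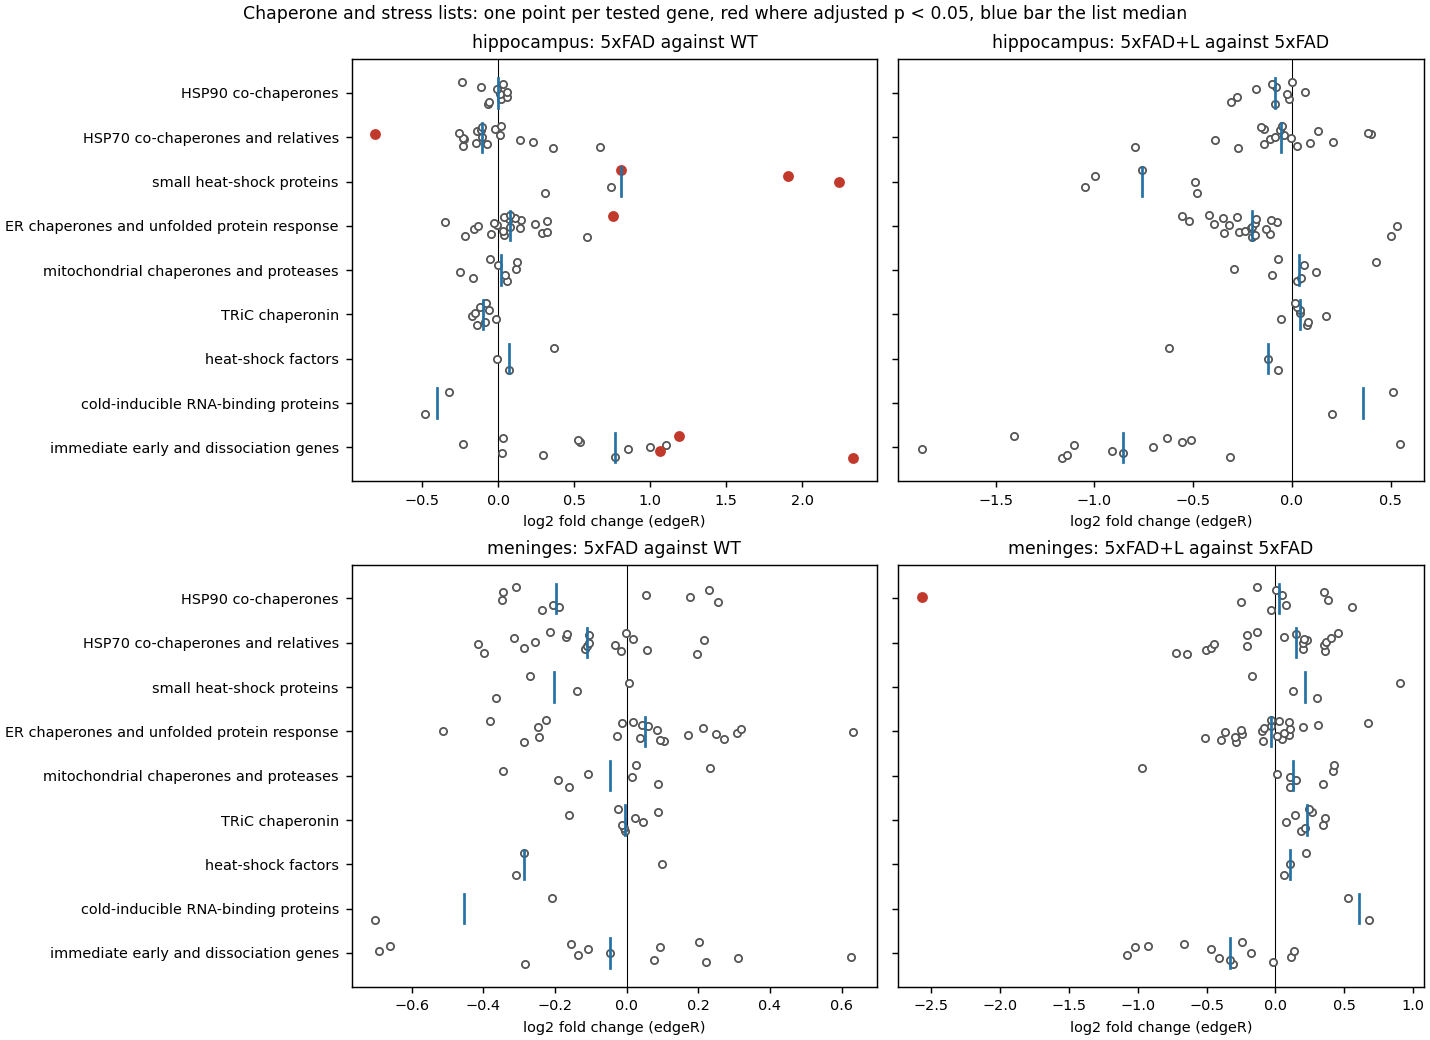
Log2 fold changes of the other chaperone and stress genes by list in hippocampus (upper panels) and meninges (lower panels), with a point for each gene tested, filled red where the adjusted p was below 0.05, and a blue bar at the list median; horizontal axes differ between panels. In hippocampus 8 genes are red in 5xFAD against WT and none in 5xFAD+L against 5xFAD, and in meninges 1 gene, Fkbp5, is red in 5xFAD+L against 5xFAD.

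In the meninges Fkbp5, a co-chaperone that HSP90 uses in steroid receptor complexes, was the 1 list gene that passed. It read 5.13, 3.99 and 3.52 FPKM in light-treated mice, 24.5, 34.2 and 18.5 in untreated 5xFAD mice and 24.0, 17.8, 23.8 and 26.2 in WT mice. All light-treated samples were below all others, and Fkbp5 fell, with log2 differences of -2.57 ± 0.29 (SE, adjusted p 0.00748) against untreated 5xFAD and -2.39 ± 0.28 (SE, adjusted p 0.00535) against WT mice. Both calls were lost without light-treated replicate 2 or 4, with adjusted p up to 0.115 and 0.0859. Both were also lost with the replicate number as a block (0.126 and 0.112). In HPC Fkbp5 differed by 0.06 ± 0.20 (SE) with light, and the change in meninges was lower than that in HPC by 2.65 on the log2 scale (-2.65 ± 0.34, SE, adjusted p 0.00104), which held in all 14 fits that left out a library. In LECs Fkbp5 ranged from 0.26 to 46.6 FPKM in WT and from 9.70 to 23.7 in light-treated mice and did not pass. The other 9 HSP90 co-chaperones tested in the meninges did not pass, and the median of the list was 0.025 beside 0.037 over all genes. No list gene passed in LECs by edgeR among 83 tested, with 7, 2 and 7 (8.43%, 2.41% and 8.43%) at an unadjusted p below 0.05 for untreated 5xFAD against WT, light-treated against untreated 5xFAD and light-treated 5xFAD against WT mice, where 3.81%, 4.01% and 6.72% of all genes had one. There, Bag3 read 188, 197, 138 and 118 FPKM in WT, 31.9, 52.9 and 87.2 in untreated and 56.4, 18.1 and 79.1 in light-treated 5xFAD mice (adjusted p 1.00 and 0.740 against WT). Every 5xFAD sample was below every WT sample, where 6.23% and 5.67% of genes did not overlap in these comparisons. The median log2 difference of its list, the HSP70 co-chaperones, was -0.63 in untreated and 0.11 in light-treated 5xFAD against WT LECs. Over all genes it was -0.04 and -0.05.

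Finally, the genes whose pattern was most like that of Hspa1a over samples were sought among the 12211 genes tested in both tissues, by the lower of the 2 Pearson correlations of log2(FPKM + 1) over 12 HPC and over 10 meninges samples, with members and provisional Gm and Rik symbols left out. They were Srsf6 (0.81 and 0.84 in HPC and meninges), Polr3e (0.84 and 0.81), Stau1 (0.79 and 0.81), Ube2d2a (0.82 and 0.79), Armcx2 (0.78 and 0.84), Srsf4 (0.78 and 0.79), Dner (0.78 and 0.80), Eno2 (0.76 and 0.86), Fam210b (0.77 and 0.76) and Gaa (0.76 and 0.79). These points share libraries, tissue pieces and groups, and the correlations are a description chosen as the highest of many.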

How the data were processed

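RNA from HPC, meninges and sorted LECs of individual mice was amplified by Smart-seq2, which does not mark strand, and sequenced. The authors deposited expected counts per gene, estimates that need not be whole, with HPC and meninges in one table and LECs in another. The authors also deposited FPKM values in the same tables, scaled by transcript length and library size. The paper's methods name fastp and RSEM, while the submitters' processing notes name Trimmomatic, HISAT2, StringTie, DESeq2 and the build mm10, and which gave these tables could not be settled here.

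Expected counts were rounded and fitted with edgeR 4.0.16 (quasi-likelihood test, TMM scaling, R 4.3.3), with the 3 groups of a tissue in one fit, keeping genes whose FPKM reached 1 in 3 or more samples. HPC and meninges were fitted together for differences between tissues. Adjusted p-values (Benjamini-Hochberg) cover all genes tested, with a threshold of 0.05. The alternatives were DESeq2 1.42.0, limma 3.58.1 on log2(FPKM + 1) or log2(FPKM + 0.1), other filters and scaling, 2 groups only, a replicate block and leaving out each library. Scripts were tested on simulated data. The members and lists were chosen with earlier results of these data known. All 10 members were looked at in every comparison that tested them, but the text does not name each of them in each comparison. For other genes, those with the smallest adjusted p per list were named. Sequences are from RefSeq. Each sample came from 1 individual hippocampus or meninges, and whether tissues share mice is not given in the sources used here.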

Additional observations from a re-analysis of the deposited data

Results flagged for a closer look

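Hspb1 in the untreated 5xFAD hippocampus was flagged because 1 of 4 samples, replicate 1, stood at 220.5 FPKM, with a gap to the next sample that took 0.931 of the range of the group. It was 1 of 50 groups of 4 samples tested over the 10 members, of which chance flags about 1 in 20.

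A further 3 genes of the chaperone and stress lists were flagged because their change differed between meninges and HPC in the test of that difference. Of the 90 list genes tested, 1.11% passed between 5xFAD and WT mice, where 1.74% of all genes did. Between light-treated and untreated 5xFAD mice 2.22% of them passed, where 1.05% of all genes did. For Ier3, an immediate early gene, the change between 5xFAD and WT mice was -1.80 in meninges relative to HPC (log2, adjusted p 0.0462 by edgeR). For Fkbp5 the change between light-treated and untreated 5xFAD mice was -2.65 (adjusted p 0.00104), and for Lonp1, a mitochondrial protease, -1.41 (adjusted p 0.0441). The adjusted p ranged from 0.00903 to 0.161 for Ier3, from 6.51e-10 to 0.00604 for Fkbp5 and from 0.00565 to 0.112 for Lonp1 over the fits tried, of which 10 of 24, 23 of 23 and 7 of 23 passed.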

How the results depend on the processing

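No difference that passed a test changed sign. Of 111 member differences 45 changed sign under at least 1 alternative, none of which passed after the change, and the largest of them, Hspd1 in light-treated 5xFAD against WT LECs, was 0.68. The number of members that passed between 5xFAD and WT HPC went from 1 to 0 at a mean FPKM of at least 5, under the replicate block, under both limma fits and with only the 2 groups compared, and was 0 to 1 when a library was left out. Between light-treated and untreated 5xFAD HPC it went from 0 to 2 by DESeq2, and was 0 to 1 when a library was left out. Between light-treated 5xFAD and WT HPC it went from 1 to 3 by DESeq2, 4 with only these 2 groups and 0 when a change of at least 2-fold was also asked. In LECs it went from 0 to 1 with no filter on low values for 5xFAD against WT, and from 0 to 1 for light-treated 5xFAD against WT with no filter, under the replicate block, by DESeq2 and by limma on log2(FPKM + 1). Between WT meninges and WT HPC it went from 7 to 4 at a mean FPKM of at least 5 and to 3 with a 2-fold change. Each test of a difference between tissues went from 0 to 1 by DESeq2, and was 0 to 1 when a library was left out. Same-numbered samples of different groups deviated with correlations of -0.244 to 0.0929 in HPC, -0.316 to 0.256 in meninges and -0.0398 to 0.0139 in LECs. Samples with different numbers reached 0.324, 0.395 and 0.0448, so no pairing by number was seen. A shared batch or processing day was not tested. The replicate block moved the genes called between 5xFAD and WT HPC from 841 higher and 267 lower to 668 and 172, and ended both calls of Fkbp5 in meninges (adjusted p 0.126 and 0.112). DESeq2 called 1078 and 643 there, 356 and 285 against 35 and 24 between light-treated and untreated HPC, and 20 and 59 against 0 and 2 in meninges. With DESeq2 in LECs, 104 genes were called higher and 360 lower in light-treated 5xFAD against WT mice, beside 0 and 1. Of the values of single genes under alternatives, 622 kept their side of the threshold, 96 lost and 16 gained a call. The causes were not tested. DESeq2 without a filter and the fit without 2 WT LEC libraries were added after the data were seen. With 3 or 4 mice per group, precision was lowest in LECs, where SE reached 1.56 on the log2 scale for Hsph1.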
